A study of Mus musculus with 9 samples.

Results

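Transcripts of the ISG15 pathway were followed in mouse bone marrow-derived dendritic cells, antigen-presenting cells grown in culture from marrow precursors. The set comprised 5 genes, Isg15, Uba7, Ube2l6, Herc6 and Usp18, each found by the Ensembl transcript identifiers of its row among the 38887 rows of the count table. Each symbol had 1 row, and all 5 passed the filter on low counts, with at least 175 counts in every library. RNA was sequenced from untreated cells, from cells given lysophosphatidic acid (LPA), a phospholipid that signals through G protein-coupled receptors, for 2 h, and from cells given LPA for 6 h, with 3 libraries per group. The series title places the work in a study of how LPA from ovarian tumors acts on type I interferon responses. The labels give no LPA dose, vehicle, mouse strain or time in culture for the untreated cells, and leave unsaid whether each replicate was its own animal or culture. The p-values therefore cover only the variation among these libraries, which could be technical.

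ISG15 is a small ubiquitin-like protein that is made in response to interferon and joined to other proteins through its C-terminal glycine. The steps parallel those of ubiquitin: UBA7 is the activating (E1) enzyme, UBE2L6 the conjugating (E2) enzyme, and HERC6 the main ligase (E3) in the mouse, a role that HERC5 has in humans. USP18 is the protease that removes ISG15 from its targets. Apart from its protease activity, USP18 binds the IFNAR2 chain of the type I interferon receptor and restrains signalling. In most cells all 5 genes are themselves interferon-stimulated, typically through ISGF3, a transcription factor complex that binds the interferon-stimulated response element (ISRE).

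All 5 transcripts were lower at 6 h of LPA, from 2.05-fold for Uba7 to 7.37-fold for Isg15. They did not fall in step. At 2 h Usp18, the gene of the deconjugating protease, was already 2.32-fold lower, while Ube2l6 had not passed the test. Most of the fall of Isg15 itself lay between 2 h and 6 h.

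Promoter sequences were found for 4 of the 5 genes, Isg15, Uba7, Ube2l6 and Herc6, in a RefSeq-derived set (GRCm38.p6) that spans 250 bases before to 50 bases after each transcription start. The upstream 250 bases of Isg15, the transcript with the largest fall, are shown with those of Ube2l6, the transcript that had not passed the test at 2 h. The Isg15 sequence is the minus strand of chr4:156200819-156201068, and the Ube2l6 sequence is the plus strand of chr2:84798578-84798827. Both windows end at the base before the start, and capitals mark matches to the ISRE core (GAAA, 2 bases of any kind, GAAA), searched on both strands.
Isg15: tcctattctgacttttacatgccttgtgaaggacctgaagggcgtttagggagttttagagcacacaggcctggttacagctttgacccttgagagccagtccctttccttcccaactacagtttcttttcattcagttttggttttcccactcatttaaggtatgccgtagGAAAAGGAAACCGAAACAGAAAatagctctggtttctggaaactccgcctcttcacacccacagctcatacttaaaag
Ube2l6: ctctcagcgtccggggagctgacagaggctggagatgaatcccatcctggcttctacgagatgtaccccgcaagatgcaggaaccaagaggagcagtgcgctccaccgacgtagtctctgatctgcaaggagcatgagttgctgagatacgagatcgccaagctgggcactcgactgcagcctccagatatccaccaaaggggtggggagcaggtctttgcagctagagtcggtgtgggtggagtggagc

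The Isg15 window held 3 matches that overlap one another, GAAAAGGAAA, GAAACCGAAA and GAAACAGAAA, from 78 to 57 bases before the start. The windows of Uba7, Ube2l6 and Herc6 held 0. Only exact matches were counted, so looser forms of the motif would be missed. For Uba7 the gene start given below lies inside the bases searched as upstream. Of 32851 promoter windows in the same set, 3.44% held at least 1 match to this core. The GAS motif (TTC, 3 bases of any kind, GAA), which reads the same on both strands, had 0 matches in the 4 windows and was found in 8.3% of all windows. A match is only a run of letters and was not tested as a binding site.

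Libraries held 29628817 to 84596899 estimated counts. Replicate 2 at 2 h, the deepest library, differed most from its group. Its counts differed from those of the other 2 h libraries by 23.5 and 33.3 chi-square units per degree of freedom. The value was 14.3 between those libraries and 7.23 to 12.9 among untreated or among 6 h replicates. This measure grows with depth, and the part of depth in it was not tested. Replicate 2 was the lowest 2 h library for all 5 transcripts. The 2 h fold changes, ratios and levels of the 5 transcripts are therefore also given without it. Dendritic cell transcripts were present, with untreated means of 3596 CPM (counts scaled to a common library size with a correction for composition) for the MHC class II chaperone Cd74, 1360 for Itgax, 18 for Zbtb46 and 13.3 for Flt3. Summed dendritic cell markers (10 genes) ran from 7159 to 8254 CPM in untreated libraries, 7615 to 8403 at 2 h and 6696 to 7337 at 6 h, and 3 fell and 1 rose at 6 h. Summed macrophage markers (6 genes, led by Csf1r) ran from 2859 to 2918, 3105 to 3239 and 3062 to 3237 CPM, and 4 fell and 2 rose at 6 h. At that time 25.7% of all genes tested fell and 26.4% rose. The part of these dendritic cell and macrophage markers in the results was not tested. Summed T, B, NK, erythroid and stromal markers were at most 1.52 CPM in any library, neutrophil markers at most 5.26 and mast cell markers at most 15.8. The mast cell sum was nearly all Kit. Plasmacytoid dendritic cell markers summed to at most 46.1 CPM, nearly all of it Tcf4, with Siglech at 0.0221 CPM in untreated cells. In bulk RNA, fewer cells of a type and less RNA per cell cannot be told apart.

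Isg15 (ENSMUSG00000035692.6, chromosome 4, 156199424 to 156200818, minus strand, GRCm38) encodes the modifier. Untreated libraries held 44.7, 50.1 and 44.5 CPM of it, 2 h libraries 32.1, 23.7 and 32.1 CPM, and 6 h libraries 5.75, 6.19 and 6.82 CPM. The 3 groups did not overlap, and the 6 h libraries lay far below both others. At 2 h the mean was 29.3 ± 4.82 CPM, against 46.4 ± 3.18 in untreated cells (SD, n = 3 each), a log2 fold change of -0.67 ± 0.11 (SE; adjusted p = 0.000779). Here and below, adjusted p-values are Benjamini-Hochberg values over 14363 genes from the quasi-likelihood test of edgeR. At 6 h the mean was 6.25 ± 0.538 CPM, a log2 fold change of -2.88 ± 0.12 (adjusted p = 8.85e-08). Isg15 was then the 48th most lowered of all genes tested. The step between the times, 6 h against 2 h, was -2.21 ± 0.12 (adjusted p = 5.21e-06) and so larger than the step from untreated to 2 h. Without replicate 2 at 2 h the 2 h value was -0.53 and the later step -2.35.

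Uba7 (ENSMUSG00000032596.14, chromosome 9, 107975505 to 107984060, plus strand) encodes the E1 enzyme that starts conjugation. Its CPM was 101.8, 103.1 and 101.0 without treatment, 76.1, 66.2 and 75.7 after 2 h of LPA, and 48.7, 52.5 and 48.2 after 6 h. The groups did not overlap, and the decline was the smallest of the set at 6 h. The log2 fold change was -0.49 ± 0.06 at 2 h (adjusted p = 3.24e-05) and -1.03 ± 0.06 at 6 h (adjusted p = 9.55e-08). The 2 h value was -0.43 without replicate 2. From 2 h to 6 h the log2 change was -0.54 ± 0.06, about the size of the first step, and -0.61 without replicate 2. A gene of the same strand that overlaps the 3′ end, Gm20661, had 0 to 9 counts per library, against at least 1484 for Uba7.

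Ube2l6 (ENSMUSG00000027078.14, chromosome 2, 84798828 to 84810335, plus strand) encodes the E2 enzyme. Untreated libraries held 69.5, 71.9 and 67.1 CPM of it, 2 h libraries 64.8, 50.6 and 67.2 CPM, and 6 h libraries 25.9, 28.5 and 29.6 CPM. At 2 h replicate 3 lay within the untreated range and replicate 1 just under it, while replicate 2 was far lower. The log2 fold change at 2 h was -0.19 ± 0.09, which missed the threshold (adjusted p = 0.132, range over the alternatives 0.0527 to 0.332). Its 95% interval, -0.40 to 0.02, includes 0, so neither a modest fall nor its absence was resolved. Without replicate 2 the value was -0.08 (adjusted p = 0.332). At 6 h Ube2l6 was at 28 ± 1.91 CPM, against 69.5 ± 2.37 in untreated cells, a log2 fold change of -1.31 ± 0.10 (adjusted p = 2.28e-06). Between the times it fell by 1.11 ± 0.10 on the log2 scale (adjusted p = 2.62e-05). Without replicate 2 that step was -1.235.

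Herc6 (ENSMUSG00000029798.11, chromosome 6, 57581000 to 57664632, plus strand) encodes the ligase. Its CPM was 81.2, 73.5 and 77.6 without treatment, 52.4, 43.0 and 54.1 after 2 h of LPA, and 28.6 in every library after 6 h. The groups did not overlap, and the 6 h replicates were closer to each other than in any other member or group. The log2 fold change was -0.64 ± 0.07 at 2 h (adjusted p = 3.99e-05), -0.54 without replicate 2, and -1.44 ± 0.08 at 6 h (adjusted p = 9.55e-08). The later step was -0.80 ± 0.08, and -0.90 without replicate 2. The libraries keep no strand, and the annotation places 2 other transcribed loci over Herc6 (Gm45193 and the pseudogene Gm19244), whose reads cannot be told apart from it where they share sequence.

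Usp18 (ENSMUSG00000030107.10, chromosome 6, 121245906 to 121270917, plus strand) encodes the ISG15 protease and receptor inhibitor. Untreated libraries held 69.8, 72.6 and 71.7 CPM of it, 2 h libraries 30.8, 27.4 and 34.4 CPM, and 6 h libraries 16.0, 18.2 and 19.1 CPM. Every 2 h library lay far below every untreated one, and the groups did not overlap. The fall at 2 h was the largest of the set (log2 fold change -1.21 ± 0.08, adjusted p = 4.58e-07), and -1.13 without replicate 2. At 6 h the log2 fold change was -1.997 ± 0.08 (adjusted p = 1.42e-08), and the later step, -0.79 ± 0.08 (-0.87 without replicate 2), was smaller than the first. Usp18 ranked 143rd among the most lowered genes at 2 h and 141st at 6 h. A long non-coding RNA on the opposite strand, Gm44148, overlaps its 3′ part, and without strand its reads cannot be told apart from Usp18.

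**Figure D1:**
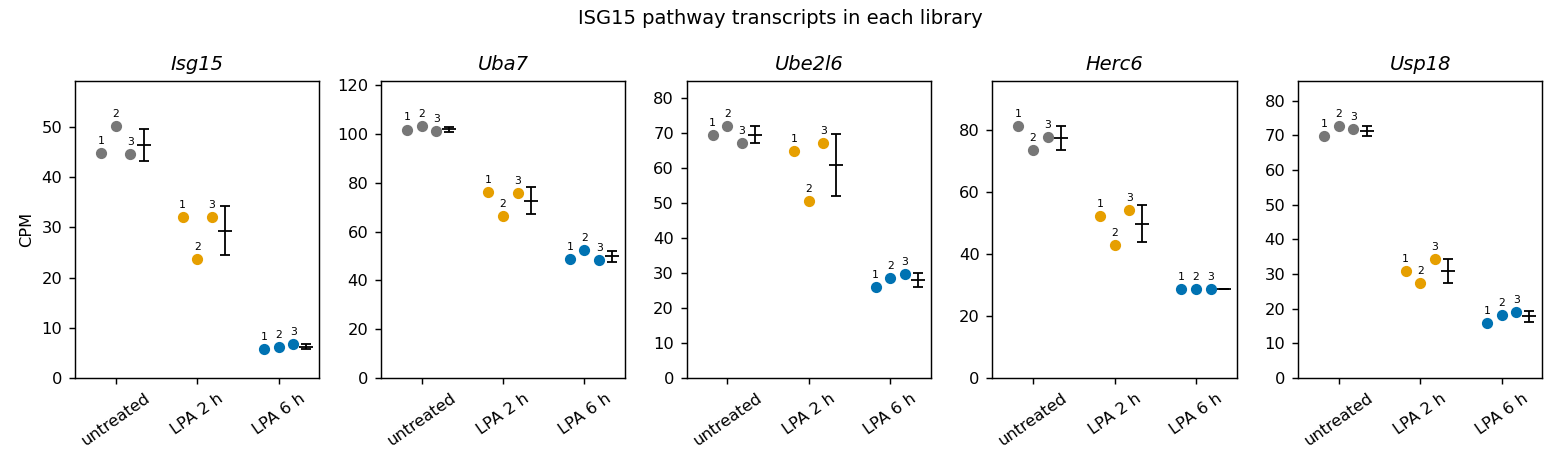
CPM of each transcript (vertical axis, from 0) in the 3 untreated, 3 LPA 2 h and 3 LPA 6 h libraries. Points are libraries with their replicate number, and the bar to the right of each group is its mean ± SD. Only Ube2l6 has overlapping groups, untreated and 2 h, and replicate 2 is the lowest 2 h library in all 5 panels.

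In total 4 of 5 transcripts passed the test as lower at 2 h, where 19.2% of all genes tested were called lower and the median log2 fold change of all genes was 0.00. At 6 h all 5 passed, where 25.7% of genes were called lower and the median was 0.01. Between 6 h and 2 h all 5 passed as well, where 24.4% were called lower and the median was -0.01. The percentile of the fold change among all genes, counted from the most lowered, ran from 0.996% for Usp18 to 24.8% for Ube2l6 at 2 h. At 6 h it ran from 0.334% for Isg15 to 4.53% for Uba7. Calls at least 2-fold lower were rarer, 1.46% of genes at 2 h and 4.48% at 6 h. Usp18 met that limit at 2 h and all 5 members at 6 h, Uba7 only narrowly (95% interval -1.16 to -0.91). With total counts only as scaling, Uba7 was at -0.99 and 4 members met it. All 3 treated libraries lay below all 3 untreated ones in 4 members at 2 h and in 5 at 6 h, which held for 24% and 31% of all genes. All 5 members were separated in this way between 6 h and 2 h, as were 29.7% of all genes.

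**Figure D2:**
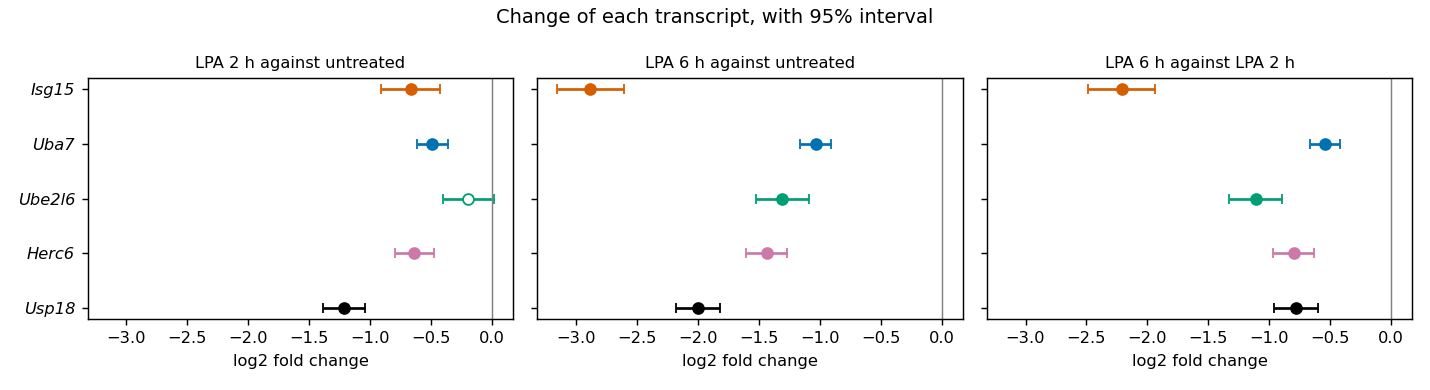
Log2 fold change (horizontal axis) of each transcript in the 3 comparisons, with its 95% interval. Filled points passed the test, and the open point is Ube2l6 at 2 h (-0.19). Usp18 lies farthest left at 2 h and Isg15 in both other comparisons. The 2 h and 6 h comparisons share their untreated libraries.

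Because the ISG15 conjugating genes and the gene that removes ISG15 changed by different amounts, their ratio in the same library was examined. The log2 ratio of Isg15 to Usp18 counts was -0.64, -0.54 and -0.69 without treatment, 0.06, -0.21 and -0.10 after 2 h of LPA, and -1.48, -1.55 and -1.49 after 6 h. It was thus higher than untreated at 2 h and lower than untreated at 6 h, without overlap. The rise at 2 h was shared, since 93.9% of the tested genes other than Usp18 had a higher ratio without overlap. A lower ratio without overlap at 6 h was found in 0.487%. For Isg15 the difference was 0.54 for 2 h against untreated, -0.88 for 6 h against untreated and -1.42 for 6 h against 2 h. Without replicate 2 at 2 h the difference at 2 h was 0.60 and that between the times -1.49. Over all 9 libraries, each difference had an exact two-sided permutation p of 0.1 (0.109 after Benjamini-Hochberg adjustment over the 12 ratio comparisons), the smallest that 3 against 3 libraries allow. This permutation test therefore cannot take any ratio past 0.05.

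Isg15 was among the 0.487% of the 14362 tested genes other than Usp18 whose ratio to Usp18 was lower at 6 h without overlap. Uba7, Ube2l6 and Herc6 had a higher ratio to Usp18 at both times, as did most genes. Usp18 itself was among the most lowered, and the ratio was higher without overlap in 93.9% of the other genes at 2 h, in 96.7% at 6 h and in 92.3% at both times. For Ube2l6 the mean log2 ratio was -0.04 ± 0.05 in untreated cells, 0.97 ± 0.10 at 2 h and 0.66 ± 0.03 at 6 h (SD, n = 3 each). For Uba7 it was 0.52 ± 0.03, 1.24 ± 0.09 and 1.49 ± 0.14. For Herc6 it was 0.12 ± 0.10, 0.69 ± 0.07 and 0.69 ± 0.13. Without replicate 2 the difference at 2 h was 1.06 for Ube2l6, 0.71 for Uba7 and 0.59 for Herc6. Between 6 h and 2 h the groups were separated in 3 of the 4 members, as in 86.2% of all other genes. The groups did not overlap in 11 of the 12 ratio comparisons in all, with an exact permutation p of 0.1 in each. The exception was Herc6 between 6 h and 2 h, whose ratio differed by 0 (exact permutation p = 1). These ratios compare changes of transcripts and do not give the amounts of the proteins.

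**Figure D3:**
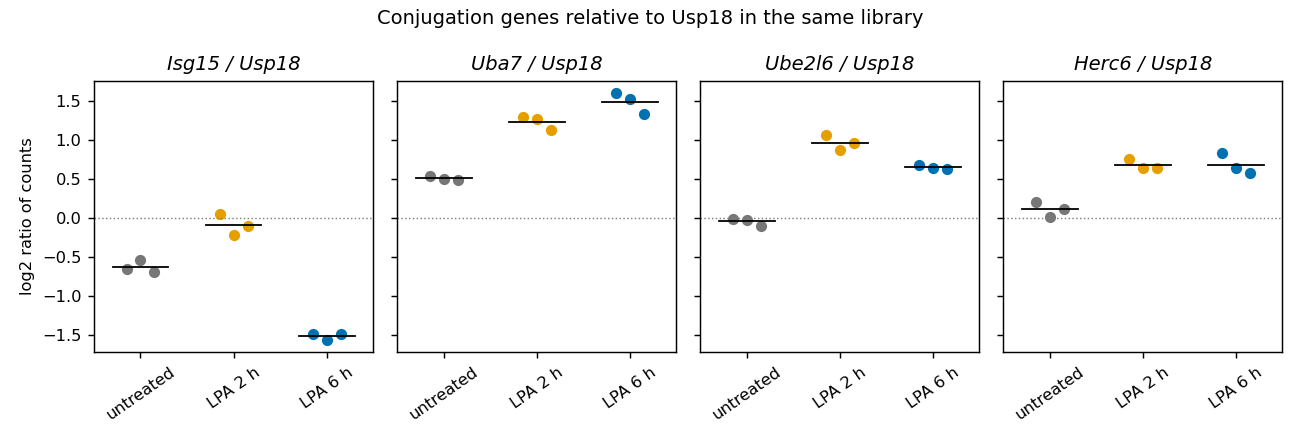
Log2 ratio of the counts of each conjugation gene to those of Usp18 in the same library (vertical axis). Points are libraries and horizontal bars are group means. The Isg15 ratio lies at -0.62 in untreated cells, -0.08 at 2 h and -1.51 at 6 h, whereas the Uba7, Ube2l6 and Herc6 ratios stay above their untreated means at both times.

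To set the levels of different genes side by side, CPM was divided by the length of the longest protein-coding transcript of the row (756 bases for Isg15, 3195 for Uba7, 1560 for Ube2l6, 4767 for Herc6 and 1771 for Usp18). In untreated cells the level was 61.4 ± 4.21 CPM per kb for Isg15, 44.6 ± 1.52 for Ube2l6, 40.3 ± 0.803 for Usp18, 31.9 ± 0.324 for Uba7 and 16.2 ± 0.799 for Herc6. The libraries of neighbours in that order did not overlap. At 2 h Ube2l6 (39.0 ± 5.76) and Isg15 (38.8 ± 6.38) were level within their spread and led the set, followed by Uba7 at 22.7 ± 1.76, Usp18 at 17.4 ± 1.96 and Herc6 at 10.5 ± 1.25. Without replicate 2 the 2 h means were 42.31 for Ube2l6, 42.45 for Isg15, 23.76 for Uba7, 18.41 for Usp18 and 11.17 for Herc6. At 6 h the order by level was Ube2l6 (17.9 ± 1.23), Uba7 (15.6 ± 0.73), Usp18 (10.04 ± 0.896), Isg15 (8.27 ± 0.712) and Herc6 (6.0 ± 0.00752). Isg15 thus stood first in untreated cells and below Ube2l6, Uba7 and Usp18 at 6 h, though its highest 6 h library (9.02 CPM per kb) nearly met the lowest of Usp18 (9.05). The places of Uba7 and Ube2l6 depend on the length used. Merging the exons of its 15 transcripts puts Uba7 at 6692 bases. Its levels are then 15.2, 10.9 and 7.44 CPM per kb in untreated, 2 h and 6 h cells. Merged exons put Ube2l6 at 1996 bases and at 34.8, 30.5 and 14.0 CPM per kb. By these means Ube2l6 lies below Usp18 in untreated cells and below Isg15 at 2 h. Uba7 then lies below Isg15 at 6 h.

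**Figure D4:**
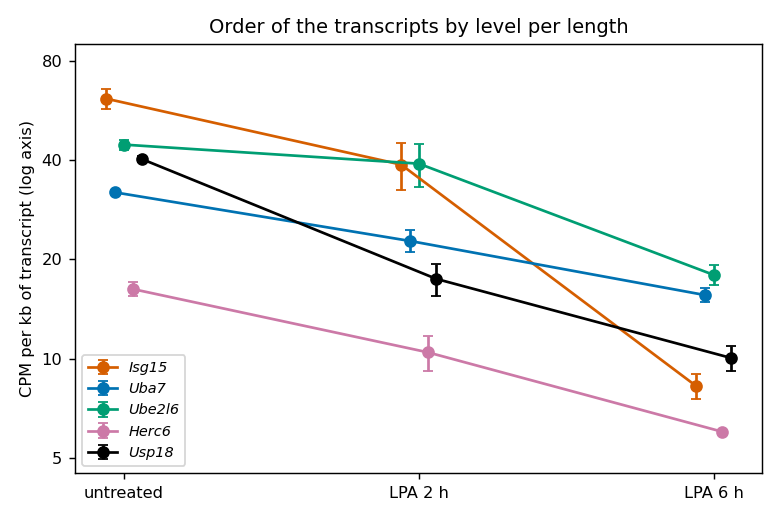
Level of each transcript in CPM per kb of its longest protein-coding transcript (log axis) in untreated, LPA 2 h and LPA 6 h cells, as mean ± SD of 3 libraries. Isg15 goes with Ube2l6 at 2 h and lies below Uba7, Ube2l6 and Usp18 at 6 h.

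Enzymes of the related modifier systems moved little by comparison at 6 h. Of 18 tested E1 and E2 enzymes and modifiers of the ubiquitin, NEDD8, SUMO and UFM1 systems, 5 fell and 3 rose at 6 h. Their log2 fold changes ran from -0.41 to 0.20 around a median of -0.06. At that time 52% of all genes passed the test, 26.4% as higher. Uba1, the main ubiquitin E1 enzyme, had a log2 fold change of -0.23 ± 0.04 (adjusted p = 0.000604). Ube2l3, the closest relative of Ube2l6, was at -0.26 ± 0.04 (adjusted p = 0.000253), and the NEDD8-conjugating enzyme Ube2f at -0.41 ± 0.05 (adjusted p = 3.54e-05). At 2 h, where 38.5% of all genes passed, 3 of the 18 fell and 2 rose. Those that rose included the polyubiquitin gene Ubb (0.42).

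The relatives of Herc6 and Usp18 also stayed within a narrower range at 6 h. Among the 4 other HERC genes, 1 fell and 0 rose at 6 h, and it was Herc3 (-0.28 ± 0.07, adjusted p = 0.00399). Herc2 was at 0.08 ± 0.04 and Herc4 at -0.13 ± 0.05, neither of which passed. At 2 h 2 HERC genes fell and 1 rose. Of 42 tested genes of other ubiquitin-specific proteases (USP), 12 fell and 7 rose at 6 h. Usp6nl, which shares the symbol's first letters but encodes a GTPase-activating protein, was left out of these counts. The log2 fold changes of the 42 ran from -0.60 to 0.35 around a median of -0.03, and the lowest was that of Usp50, which did not pass (0.145 CPM at 6 h, adjusted p = 0.28). Usp25 fell by 0.57 ± 0.07 on the log2 scale, Usp10 by 0.34 ± 0.05 and Usp12 by 0.28 ± 0.04. At 2 h 9 USP genes fell and 8 rose. Their log2 fold changes then ran from -0.45 to 0.68, a range no narrower than that of the 5 members (-1.21 to -0.19). Among all genes tested, 25.7% fell and 26.4% rose at 6 h, and 19.2% fell and 19.3% rose at 2 h. All 5 ISG15 pathway members lay below the lowest of these USP and HERC values at 6 h.

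Other genes linked to ISG15 conjugation or cleavage went both ways. Trim25, an interferon-inducible ubiquitin ligase that has also been reported to act as an ISG15 ligase, was higher at both times: it averaged 233.6 ± 3.29 CPM in untreated cells, 403.6 ± 25.9 CPM at 2 h and 335.8 ± 5.68 CPM at 6 h. Its log2 fold change was 0.79 ± 0.05 at 2 h (adjusted p = 2.77e-07) and 0.52 ± 0.05 at 6 h (adjusted p = 3.49e-06). Of the 7 tested genes in this list, which adds the ligase Arih1 and ubiquitin proteases reported to react with ISG15, 4 fell and 1 rose at 6 h, and 2 fell and 2 rose at 2 h. Over all genes tested, 25.7% fell and 26.4% rose at 6 h, and 19.2% fell and 19.3% rose at 2 h. Arih1 was at -0.16 ± 0.04 at 6 h (adjusted p = 0.00887) and Usp5 at -0.23 ± 0.04 (adjusted p = 0.000777). LFA-1, an integrin that binds extracellular ISG15, is encoded by Itgal and Itgb2. Itgal fell at 6 h (-0.50 ± 0.10, adjusted p = 0.00217) and Itgb2 was at 0.00 ± 0.04.

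Of 6 genes listed for the partners of USP18 at the interferon receptor and for its turnover, 3 fell and 2 rose at 6 h. At 2 h 2 fell and 1 rose. The shares of all genes tested were 25.7% lower and 26.4% higher at 6 h, and 19.2% and 19.3% at 2 h. The listed genes that rose at 6 h were Ifnar2 and Skp2 (0.27 ± 0.10, adjusted p = 0.0302). Skp2 encodes a ubiquitin ligase subunit for the turnover of USP18. Ifnar2, which encodes the chain that USP18 binds, averaged 101.7 ± 5.88 CPM at 6 h, against 83.5 ± 3.62 CPM in untreated cells (log2 fold change 0.28 ± 0.05, adjusted p = 0.000576). The receptor kinase gene Tyk2 had a log2 fold change of -0.27 ± 0.06 (adjusted p = 0.00155), and Stat2, whose product brings USP18 to the receptor, -1.24 ± 0.06 (adjusted p = 2.01e-08). Usp18 and Ifnar2 thus moved in opposite directions at both times.

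Among 6 genes of ISGF3 and interferon regulatory factors, 5 fell and 0 rose at each time, though not the same 5 genes. The median log2 change of the 6 was -0.34 at 2 h and -1.26 at 6 h. In all genes tested, 19.2% fell and 19.3% rose at 2 h, and 25.7% fell and 26.4% rose at 6 h. Irf9, the DNA-binding subunit of ISGF3, fell by 1.29 ± 0.07 at 6 h. At 2 h Irf9 was at -0.37 ± 0.07, a smaller change than that of Usp18. Of 14 genes whose products are known ISG15 targets, 9 fell and 3 rose at 6 h, with a median of -0.96, and 10 fell and 3 rose at 2 h, with a median of -0.36. Those with the smallest p at 6 h are themselves interferon-stimulated: Mx1, an antiviral GTPase (-1.91 ± 0.07), Eif2ak2, which encodes the kinase PKR (-1.27 ± 0.08), and Ifit1 (-3.88 ± 0.17), whose reads may be divided with close copies. The 3 that rose at 6 h included Trim25 and the cap-binding protein gene Eif4e2 (0.15).

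**Figure D5:**
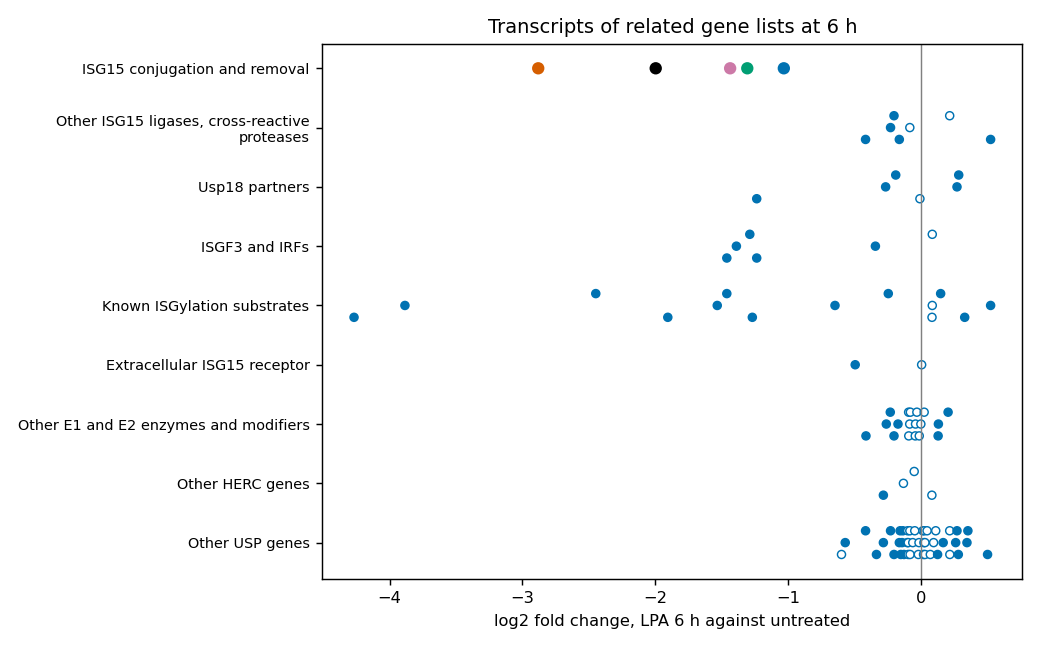
Log2 fold change for LPA 6 h against untreated (horizontal axis) of the 5 ISG15 pathway transcripts (top row) and of every tested gene in 8 related lists. Filled points passed the test and open points did not, small vertical offsets only separate points, and some genes stand in more than 1 list. The HERC, USP and other E1 and E2 rows lie between -0.60 and 0.50, to the right of all 5 members, and the highest point of the USP row is Usp6nl, no protease gene.

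The genes whose pattern over the 9 libraries was most like the mean of the 5 members were sought among 9795 tested genes with a mean of at least 5 CPM. By Pearson's r of log2(CPM + 0.5), the closest were Rnf213 (0.999), Nlrc5 (0.998), Cmpk2 (0.998), Parp14 (0.998), Acaca (0.998) and H2-T24 (0.997). Rnf213, which encodes a giant ubiquitin ligase, was at 986.5 ± 19.3 CPM in untreated cells, 554 ± 115 at 2 h and 207.3 ± 14.0 at 6 h. Acaca, the acetyl-CoA carboxylase gene of fatty acid synthesis, had a much smaller change, with a log2 fold change of -0.65 at 6 h. Such an r measures shape and not size, and since the 9 libraries form 3 separate groups, it rests mainly on the order and spacing of 3 group means.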

How the data were processed

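RNA-seq of 9 libraries was analysed. The mRNA libraries were non-stranded and made from total RNA (RNeasy MinElute kit), per the labels' protocols. The authors deposited 1 table of estimated counts, whole numbers without depth scaling. RSEM 1.2.3, DESeq2 and genome build mm10 are named in the submitters' processing notes. Aligner and annotation: not given in the sources used here. Rows were matched by transcript identifier to GENCODE M21 (GRCm38): 37776 rows matched 1 gene (98.5% of counts), 176 several and 935 none. The row with most counts stood for a symbol.

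Genes were filtered with filterByExpr (minimum count 10, minimum total 15), scaled with TMM (factors 0.974 to 1.03) and fitted across all 9 libraries with edgeR 4.0.16 (robust quasi-likelihood, R 4.3.3; group means, no covariate), after a check on simulated data. Genes with adjusted p under 0.05 were called. SEs were obtained by dividing log2 fold changes by the root of the F statistic. Replicate pairs differed by at least 7.23 chi-square units per degree of freedom, and each library was counted. Libraries with the same number deviated together from their group means. Correlations were 0.144 to 0.293 for 2 h with untreated and 0.212 to 0.314 for 6 h with untreated. The numbers were therefore taken to pair these libraries, from the data alone. For 6 h with 2 h the correlations ran from 0.083 to 0.204, which did not meet the limit of 0.1 in every pair. The main fit and the ratio permutations did not use this pairing. Only the replicate block did, for the members and the counts of genes called. Alternatives were other scalings, DESeq2 1.42.0, limma-voom (limma 3.58.1), no filter, a replicate block, only the 6 libraries compared, summed rows and each library left out. Members are always named, and from each list the 3 genes with the smallest p at 6 h; others named are those of small counts, chosen after their values were seen; some genes that this would name are not reported here. The members and lists were chosen with earlier results of these data known. Intervals cover the spread between libraries as fitted.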

Additional observations from a re-analysis of the deposited data

Results flagged for a closer look

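The 6 h libraries differed from the 2 h libraries in all 5 transcripts, by edgeR's test of 6 h against 2 h with Benjamini-Hochberg adjustment. The same test called 6991 of 14363 genes, and 24.4% of all genes tested were called lower. The log2 difference, 6 h minus 2 h, was -2.21 for Isg15 (adjusted p = 5.21e-06), -0.54 for Uba7 (3.58e-05), -1.11 for Ube2l6 (2.62e-05), -0.80 for Herc6 (2.31e-05) and -0.79 for Usp18 (3.66e-05). With 1 untreated group of unstated time in culture, the time under LPA and the time in culture cannot be told apart. Each 6 h library lay below each 2 h library in all 5. In 29.7% of all genes tested the 6 h libraries lay below the 2 h libraries in this way.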

How the results depend on the processing

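In 441 combinations of a member value, ratio or gene count with an alternative, no called value changed sign or crossed the threshold. The ratios to Usp18 among them carry no call and so had no threshold to cross. The Herc6 ratio to Usp18 between the times, 0 in the main analysis, ran from -0.07 to 0.06. Leaving out 1 library gave 4352 to 5580 genes called at 2 h, 6226 to 7896 at 6 h and 5767 to 7425 between the times, against 5525, 7472 and 6991 with all libraries. With the replicate block the counts were 6135, 8036 and 7588, and no call of a member changed. For 6 h against untreated, the log2 fold change over all alternatives ran from -2.95 to -2.83 for Isg15, -1.07 to -0.99 for Uba7, -1.35 to -1.26 for Ube2l6, -1.48 to -1.40 for Herc6 and -2.05 to -1.94 for Usp18. The 2 h value of Ube2l6 ranged from -0.27 to -0.08, smallest in size without replicate 2 at 2 h, and did not pass in any alternative; each untreated and 2 h library held at least 3093 counts of Ube2l6. In alternatives chosen after seeing the data, replicate 2 at 2 h was left out. The counts called at 2 h then changed in 2 of 8 gene lists: 10 ISG15 targets fell and 2 rose, and 10 USP genes fell and 9 rose. Of all 14457 genes tested in that fit, 2849 fell and 2731 rose. Lists with the same counts could still differ in the genes called. Arih1 no longer passed by edgeR's test (adjusted p = 0.0732), and another gene of its list then did. Irf9 was then at -0.28, Trim25 at 0.84 and Ubb at 0.44. With Usp6nl counted, 12 USP genes fell and 8 rose at 6 h. Ratios to Usp18 cannot reach an exact permutation p under 0.1 with 3 libraries a group.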
